A study of Mus musculus with 4 samples.

Results

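Ahr encodes the aryl hydrocarbon receptor, and it was represented by 1 probe set of the 35557 transcript clusters (groups of probes along one gene) measured on Affymetrix Mouse Gene 1.0 ST arrays. The probe set, 10400006, was found as the single row of the authors' deposited table whose gene symbol is Ahr. That table names 398 probe sets, 93 higher and 305 lower in cells overexpressing human catalase, and it holds only probe sets that changed by 2-fold or more, the same way, at each of its times. Ahr was therefore chosen for its difference on these same arrays. Its levels and differences are given here as a description, with no test.

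The receptor is a transcription factor of the bHLH-PAS family. Without ligand it waits in the cytosol, bound to HSP90 and to co-chaperones. Planar aromatic pollutants such as dioxin and benzo[a]pyrene, and tryptophan metabolites such as kynurenine, send it to the nucleus, where it pairs with ARNT and binds xenobiotic response elements in genes such as Cyp1a1, Cyp1b1 and its own repressor gene Ahrr. In endothelium it is known for responding to fluid flow, and mice that lack it keep an open fetal shunt in the liver circulation. Catalase breaks down hydrogen peroxide.

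RNA came from mouse aortic endothelial cells of strain C57BL/6J, either wild type (WT) or overexpressing human catalase (hcatTg), with 2 arrays per genotype, each from an independent RNA sample. All cultures were grown to 80% confluence, kept without serum for 12 h and then given 10% fetal bovine serum for 12 h. The sources used here do not give the promoter of the transgene, the age of the mice or the number of animals behind each RNA sample. An SD thus reflects only the spread between these RNA samples. An SE comes from a limma fit, so it also draws on the spread of the other clusters, and on no further samples. The authors' table pairs the first WT with the first hcatTg array as its 1st time and the second arrays as its 2nd time, called the first and second run here. The sources used here do not say what separated the runs. Unless stated, the limma fits leave out this pairing, so differences between runs enter their SE and p.

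Some features of the arrays bear on every value of Ahr. The array medians ranged from 5.40 to 6.02 on the log2 scale, so the deposited values had not been brought to one distribution, and every result on Ahr is given before and after scaling. WT replicate 1 stood apart in part of the array. It lay at least 4-fold below 3 arrays that were within 1 log2 unit of each other in 115 clusters, and 114 of these were among the 6636 clusters numbered below the first probe set of the authors' table. The level of catalase was not analysed here, because the named probe sets include none for Cat.

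On the deposited log2 scale, Ahr lay at 7.13 on WT replicate 1 and 9.56 on WT replicate 2, and at 9.26 on hcatTg replicate 1 and 10.96 on hcatTg replicate 2. The hcatTg array was the higher of the pair in both runs, but the genotypes overlapped, since the second WT array lay 0.29 above the first hcatTg array. The genotype means were 8.34 ± 1.72 in WT and 10.11 ± 1.20 in hcatTg (SD, n = 2 arrays each), a difference of 1.77 ± 0.803 log2 units (SE of the limma fit across all clusters, n = 2 arrays per genotype). Within the runs the differences were 2.13 in the first and 1.40 in the second, which correspond to 4.39-fold and 2.65-fold. The SD of these log2 differences was 0.52 (n = 2 runs).

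The overlap depended on the scale. With each array's median subtracted, Ahr lay 1.38 and 3.54 log2 units above the median in WT and 3.87 and 4.96 above it in hcatTg. After quantile normalization, which gives all arrays one distribution, it lay at 7.38 and 9.14 in WT and at 9.78 and 10.56 in hcatTg. Both hcatTg arrays then lay above both WT arrays, by 0.33 log2 units with median centring and by 0.64 with quantile normalization. Among all clusters 2.53% had both hcatTg arrays above both WT arrays on the deposited values, 11.5% with median centring and 12.4% with quantile normalization.

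**Figure D1:**
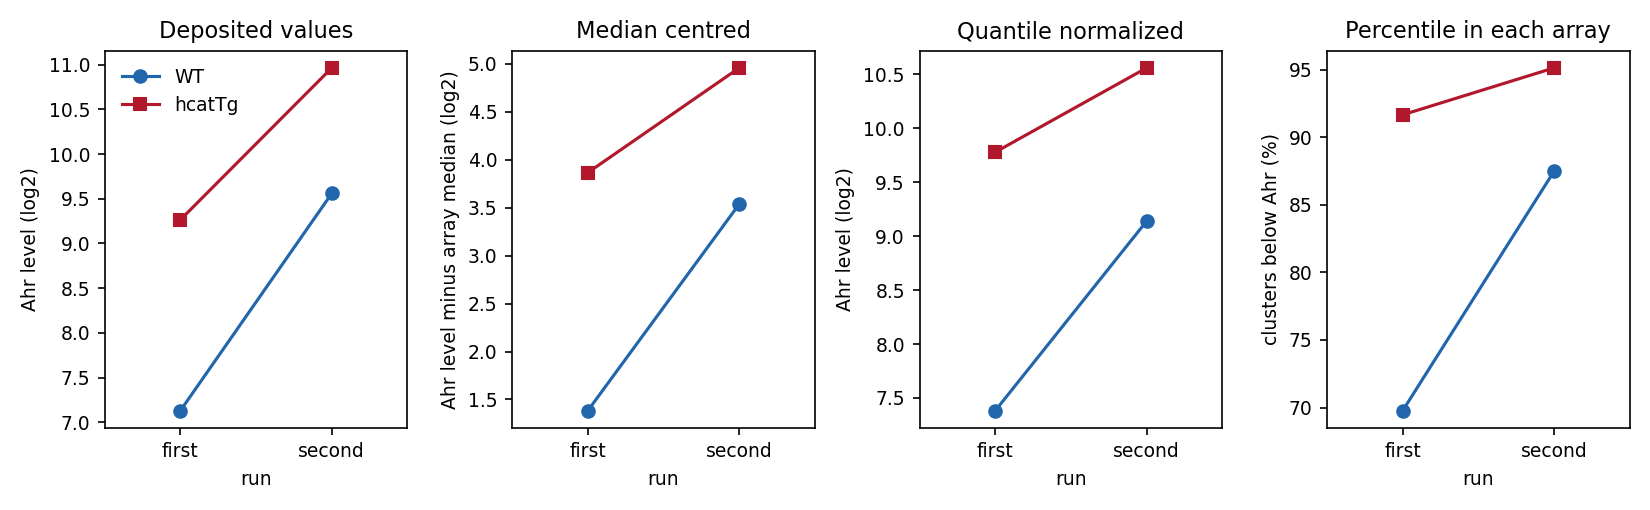
Level of Ahr on each of the 4 arrays, by run (x axis), in WT (circles) and hcatTg (squares), on the deposited log2 scale, after median centring, after quantile normalization and as the percentage of clusters below Ahr on the same array. The hcatTg point is above the WT point in each run in all 4 panels, and the second WT point lies above the first hcatTg point only on the deposited scale (9.56 against 9.26).

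The rank of Ahr within its array needs no scaling between arrays. Ahr exceeded 69.8% and 87.5% of the 35557 clusters on WT replicates 1 and 2, and 91.7% and 95.1% on hcatTg replicates 1 and 2. Thus 10750 clusters lay above it on the first WT array and 2961 on the first hcatTg array. In the second run 4447 clusters lay above it in WT and 1726 in hcatTg. The percentiles did not overlap between genotypes, as for 12.4% of all clusters with hcatTg higher, and they lay 4.18 percentage points apart at the closest. Without the 6636 lowest-numbered clusters they were 67.5% and 87.1% in WT, and 91.7% and 95.0% in hcatTg. Probe sets differ in how they bind their targets, so a percentile places Ahr on its array and is not a comparison of its abundance with that of other genes.

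The genotype difference of Ahr was in the far tail of all clusters in both runs. Ahr was chosen for a difference of 2-fold or more in both runs, so this place describes it only. On the deposited values 206 clusters of 35557 (0.579%) had a larger hcatTg minus WT difference in the first run, and 172 (0.484%) in the second. After quantile normalization 262 (0.737%) and 149 (0.419%) had one. In both runs at once 31 clusters exceeded Ahr on the deposited values, and 40 did after quantile normalization. On the deposited values, most clusters ahead of Ahr in the first run were in the low-numbered range where WT replicate 1 stood apart. Without that range 34 clusters of 28921 (0.118%) remained ahead in the first run and 163 (0.564%) in the second. At least 2-fold higher values in hcatTg in both runs, the pattern for which the authors' table was selected, were found in 0.377% of clusters on the deposited values, 0.501% with median centring and 0.509% with quantile normalization.

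The authors' deposited table gives Ahr a fold of 4.11 at the 1st time and 2.65 at the 2nd time, with an average of 3.38. Its signals for the first arrays were 8.09 in WT and 10.13 in hcatTg, higher by 0.96 and 0.86 log2 units than in the value table. For all 398 probe sets of the table the median of this shift was 0.80 in WT and 0.67 in hcatTg, so the authors had scaled these signals differently from the value table. The table gives no signals for the second arrays, so it does not show whether the genotypes overlap on its scale. In the authors' deposited table Ahr ranked 31 among the 93 higher probe sets by the first fold, 81 by the second fold and 62 by the average.

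By the smaller of its run differences on the deposited values, Ahr also ranked 62 of 93. Ranked directly above were Aldh1a2, which makes retinoic acid (1.41), and Olr1, a receptor for oxidised LDL (1.43), and directly below were Gdf10, a TGF-beta family ligand (1.39), and Heph, a copper-dependent ferroxidase (1.39). For these 4 genes the smaller difference was that of the first run, while for Ahr it was that of the second. The values at the edge of the 2-fold selection lay below that of Ahr: the last of the 93 was Sh3tc1 at 0.92, and the unnamed cluster just under 1 log2 unit in the value table was at 0.995.

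Ahr differed less between the genotypes in the second run than in the first, by 0.73 log2 units on the deposited values, 1.06 with median centring and 0.98 with quantile normalization. Each run holds 1 array per genotype, so this change between runs has no replicate and was not tested. Among the 93 higher probe sets the first difference was the larger in 25 on the deposited values, 42 with median centring and 50 with quantile normalization. Their median difference was 1.85 in the first run and 2.11 in the second on the deposited values, and 2.22 and 2.02 after quantile normalization. After quantile normalization Ahr differed by 2.40 in the first run, rank 37 of 93, and by 1.42 in the second, rank 80 of 93.

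**Figure D2:**
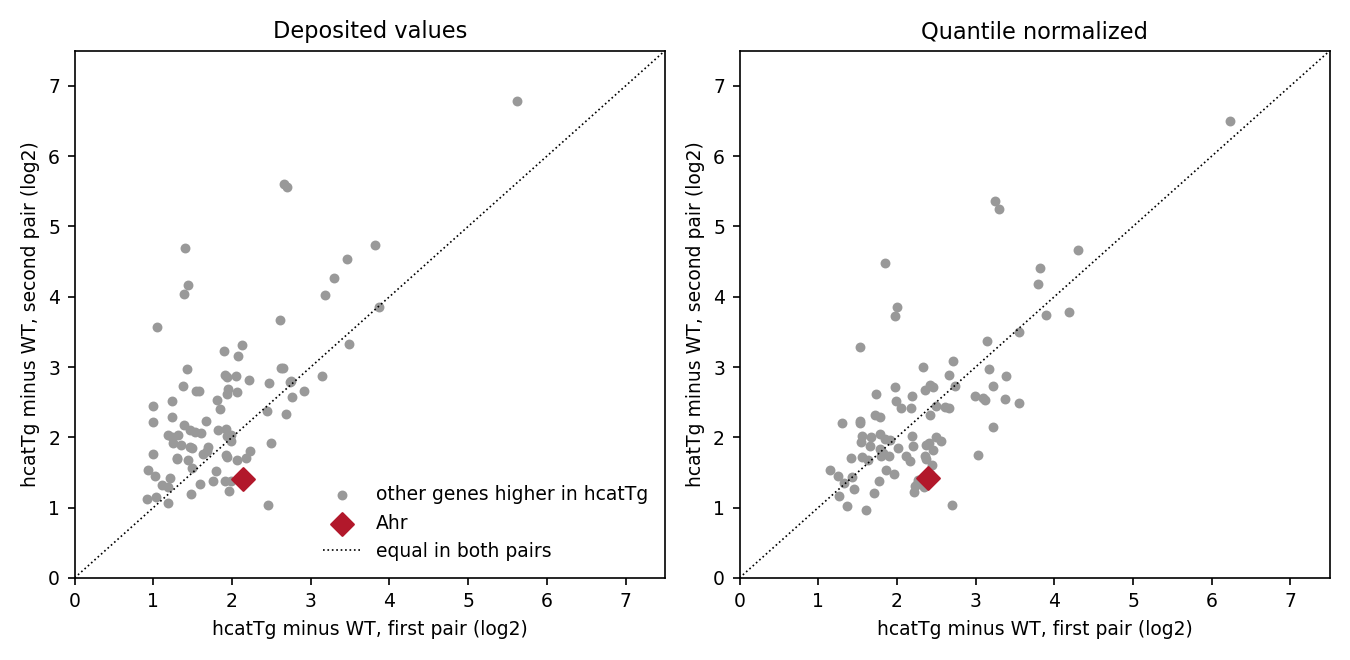
Difference between hcatTg and WT (log2) in the first run (x axis) and the second run (y axis) for the 93 probe sets that the authors' table lists as higher in hcatTg, on the deposited values (left) and after quantile normalization (right). Ahr (diamond) lies below the dotted line of equal differences in both panels, at 2.13 and 1.40 on the left and 2.40 and 1.42 on the right.

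Ahr also differed between the runs, on the deposited values by more than between the genotypes and after quantile normalization by less. From the first to the second array it was higher by 2.43 log2 units in WT (5.39-fold) and by 1.70 in hcatTg (3.25-fold) on the deposited values. The mean of these run differences was 2.06, against a mean genotype difference of 1.77. After quantile normalization the run differences were 1.76 in WT and 0.78 in hcatTg, with a mean of 1.27 against a genotype difference of 1.91. Over all clusters the median of the differences between runs was 0.21 in WT and 0.60 in hcatTg on the deposited values. After quantile normalization this median was -0.10 in WT and -0.05 in hcatTg. The run difference of Ahr thus exceeded that of the median cluster on either scale. In WT, 503 clusters (1.41%) had a larger difference between runs than Ahr on the deposited values, and 1678 (4.72%) had one in hcatTg. After quantile normalization 811 (2.28%) had a larger one in WT and 2584 (7.27%) in hcatTg.

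Most of the genes higher in hcatTg differed less between the runs. After quantile normalization the 93 probe sets had a median difference between runs of 0.14 in WT and 0.23 in hcatTg. Ahr ranked 5 of 93 in WT and 24 in hcatTg, and it was among 16 with a difference of at least 1 log2 unit in WT. On the deposited values no other cluster of the 35557 was at least as far apart as Ahr in all 4 respects, that is between genotypes in each run and between runs in each genotype. After quantile normalization 3 clusters met these limits, Ahr included. Limits set at the values of Ahr were chosen with its values known, so these counts describe it only.

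**Figure D3:**
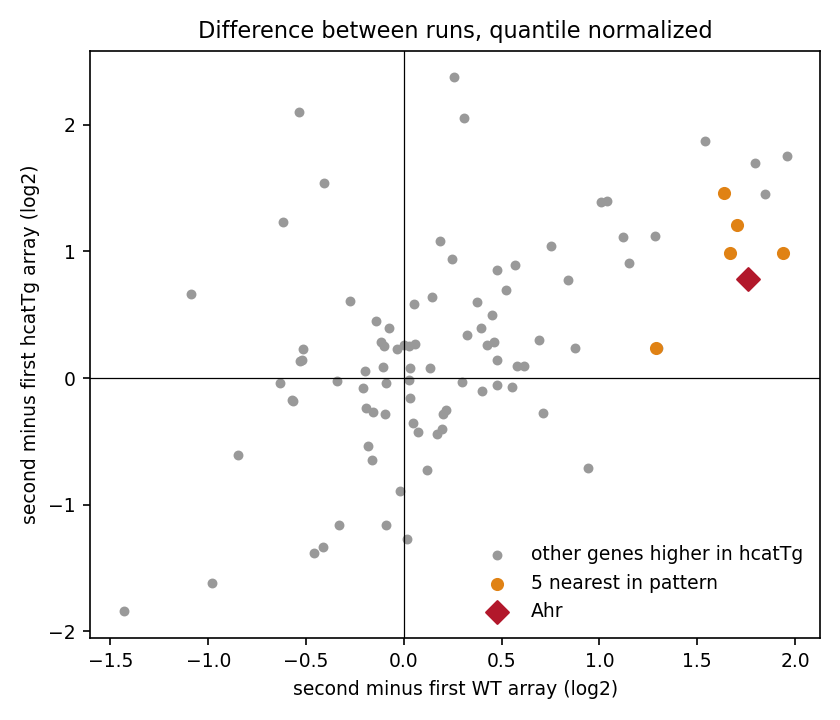
Difference between the second and first array (log2, quantile normalized) in WT (x axis) and hcatTg (y axis) for the 93 probe sets higher in hcatTg. Ahr (diamond, 1.76 in WT and 0.78 in hcatTg) and 5 of the named probe sets nearest to it in pattern (orange) lie to the right of most others, whose median in WT was 0.14.

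Of the 93 higher probe sets, 9 overlapped between the genotypes on the deposited values, among them Ahr, Abca1, Ccn3, Gda, Hacd4, Mfap5, Serpinb6b and Serping1. With median centring 3 of the 93 still overlapped, among them Mfap5 and Serping1, and with quantile normalization 3, among them H19 and Mfap5. Ahr was in neither of these smaller sets. The 93 were selected as higher in hcatTg in both runs on these arrays, so little overlap among them follows largely from that selection. Among all clusters, both hcatTg arrays lay above both WT arrays in 2.53%, 11.5% and 12.4% on these scales in turn.

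The named genes whose pattern was most like that of Ahr were found by the root mean square distance over the 4 arrays, after quantile normalization and with each probe set centred on its own mean. Nearest were Ccn3 (Nov in the authors' table), which encodes a matricellular protein, at 0.0998 log2 units, and Abca1, the cholesterol efflux transporter gene, at 0.102. Then came Hacd4 (Ptplad2 in the table), a gene for a dehydratase of very long fatty acid synthesis, at 0.231, Khk, the fructose kinase gene, at 0.258, and Serpinb6b, a serpin gene with similar family copies that probes may share, at 0.263. The median distance of the 397 other named probe sets was 1.65. The distance rests on 4 arrays and describes likeness only.

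Ccn3 lay at 6.79 and 9.38 in WT and at 8.92 and 10.84 in hcatTg on the deposited log2 scale. Abca1 lay at 6.72 and 9.03 in WT and at 8.79 and 10.71 in hcatTg. Both were thus low on the first WT array, close to each other on the second WT and first hcatTg arrays, and high on the second hcatTg array, as was Ahr. Their genotype differences were 2.13 and 1.46 for Ccn3 and 2.07 and 1.68 for Abca1 in the first and second run. Khk, with 1.76 and 1.37, differed between runs by 1.51 in WT and 1.12 in hcatTg, which is less than for Ahr. Serpinb6b, at 7.80 and 10.15 in WT and 9.78 and 12.10 in hcatTg, had nearly equal genotype differences of 1.98 and 1.95 in the runs. Of the 35556 clusters other than Ahr, 11 lay within the distance of the sixth nearest named probe set, and 6 of them are named in the authors' table. On the deposited values, and with median centring, 5 of these 6 were again among the 6 nearest.

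**Figure D4:**
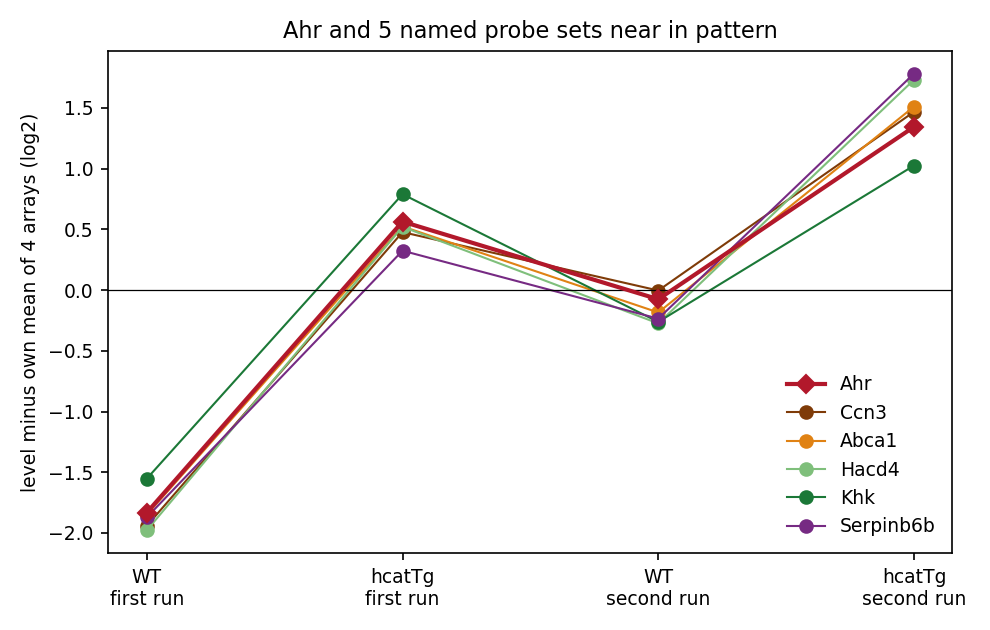
Quantile normalized log2 level minus the probe set's own mean over the 4 arrays (y axis) on each array (x axis) for Ahr (thick line) and 5 of the named probe sets nearest to it. All are lowest on the first WT array and highest on the second hcatTg array, with distances from Ahr of 0.0998 (Ccn3) to 0.263 (Serpinb6b) log2 units.

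Genes of the receptor's pathway could be followed only where the authors' table names them. Among 15 genes of the receptor complex and its cofactors, with Arnt and the HSP90 genes, 0 were in the table. Of 29 target genes, with Cyp1a1, Cyp1b1, Nqo1, Tiparp and Ahrr, 0 were in the table, and of 14 genes of tryptophan ligand metabolism, with Ido1 and Tdo2, also 0. Together these lists hold 57 different genes. Their levels were not analysed here, since the other clusters carry no names, and a gene's absence from the table does not show that it was unchanged.

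Of the 24 names on the bHLH-PAS family list, the table holds Ahr and Epas1. Epas1, the hypoxia-inducible factor HIF-2 alpha gene, lay at 6.59 and 7.35 in WT and at 5.42 and 5.72 in hcatTg. Its hcatTg arrays lay below its WT arrays, opposite to Ahr and as for 17.8% of all clusters. The differences were -1.18 and -1.63 in the runs, with a mean of -1.41 ± 0.473 (SE of the limma fit, 2 arrays a genotype, limma adjusted p = 1.00). After quantile normalization Epas1 differed between runs by 0.19 in WT and by -0.27 in hcatTg, so its values had no run difference like that of Ahr.

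Of 16 partner and regulator genes of the receptor (NF-kB, Sp1, NRF2, estrogen receptor and cell cycle genes), the table holds Esr1. Esr1, the estrogen receptor alpha gene, lay at 5.98 and 6.39 in WT and at 7.52 and 9.05 in hcatTg, without overlap. On these deposited values 2.53% of all clusters had both hcatTg arrays above both WT arrays. Esr1 differed by 1.55 in the first run and 2.66 in the second, so the larger difference was in the second run, unlike that of Ahr. The mean difference was 2.10 ± 0.565 (SE of the limma fit, 2 arrays a genotype, limma adjusted p = 1.00).

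Of 11 cytokine, growth factor and prostanoid genes whose expression the receptor is known to modulate, the table holds 5, of which 1 was higher and 4 had lower means in hcatTg, with a median difference of -2.07. Ptgs2, the inducible cyclooxygenase gene, was the higher one, at 10.07 and 10.20 in WT and 11.75 and 12.43 in hcatTg. Its mean difference was 1.95 ± 0.463 (SE of the limma fit, 2 arrays a genotype, limma adjusted p = 0.777). The cytokine gene Il6 (-2.62), the TGF-beta ligand gene Tgfb3 (-2.23), the chemokine gene Ccl2 (-2.07) and the angiogenic factor gene Vegfa (-0.98) had the lower means. Among all its probe sets 23.4% were higher. The table was selected on these arrays, so the directions of its genes are not independent evidence.

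Of these 7 pathway genes besides Ahr, 0 passed limma on the deposited values, where 0.00844% of all clusters were called. At an unadjusted limma p below 0.05 there were 6 of them, Vegfa being the exception, against 1.81% of all clusters. With the replicate number as a block, limma called 3.27% of all clusters and 6 of the 7, again without Vegfa (adjusted p = 0.0747). In that fit all clusters shared a single variance, so a larger mean difference always gave a smaller p. With scaling the clusters no longer shared a single variance in the block fit, and these calls ended. The block called 0.0675% of clusters and 0 of the 7 with median centring, and 0% of clusters with quantile normalization. All 7 had an unadjusted p below 0.05 in the last of these fits, as had 4189 of all 35557 clusters. A lost call thus does not show a lost difference. These genes came from a table selected on the same arrays, so nothing is read from the counts.

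The promoter of Ahr is not printed here. The xenobiotic response element was instead looked for in the RefSeq promoters (GRCm38.p6, 250 bases before to 50 after the start) of the genes higher in hcatTg along with Ahr, as the letters TNGCGTG on either strand. This element contains the core GCGTG. Of the 93 higher genes 67 had a promoter, and 5 of these (7.46%) held the element: Mageh1, Mbnl3, Ptgs2, Stc2 and Tgfbr2. Of the 305 genes lower in hcatTg 224 had a promoter, and 20 of these (8.93%) held it. Among all 27025 genes with a promoter 1578 (5.84%) held it. The core was in 41.8% of the promoters of higher genes, 45.1% of those of lower genes and 35.2% of all. Of the 6 genes nearest to Ahr in pattern, 4 had a promoter and 0 held the element or the core. Of the 22 target genes with a promoter, 3 held the element: Ahrr, Ednrb and Gsta2. The sequences below show the letters in 3 genes that were higher along with Ahr and, for comparison, in Ahrr, the receptor's own repressor gene. Capitals mark the element, and each is read 5′ to 3′ on the strand where it reads TNGCGTG.
Ptgs2, chr1:150099916-150099952, plus strand: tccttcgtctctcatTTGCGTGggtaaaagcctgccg
Stc2, chr11:31370280-31370311, plus strand: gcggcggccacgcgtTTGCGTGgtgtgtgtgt
Tgfbr2, chr9:116175482-116175518, minus strand: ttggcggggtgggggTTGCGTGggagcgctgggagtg
Ahrr, chr13:74292339-74292375, minus strand: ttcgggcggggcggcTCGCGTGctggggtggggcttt
The 3 higher genes shown have TTGCGTG, the others, Mageh1 and Mbnl3, have TGGCGTG, and Ahrr has TCGCGTG. A match describes these letters only and shows no binding. Only bases near the start were searched, so a missing match does not show that a gene lacks the element elsewhere.

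The genotypes also differed in sex-linked genes, and all 5 on the list were in the table. Xist, the RNA that silences an X chromosome in female cells, lay at 4.71 and 4.66 in WT and at 10.33 and 11.45 in hcatTg. The Y-linked helicase gene Ddx3y lay at 9.09 and 10.24 in WT and at 3.85 and 4.79 in hcatTg. Xist and Ddx3y passed limma on the deposited values (adjusted p = 0.0117 and 0.0333), where 0.00844% of all clusters were called. The same fit called 0 clusters with median centring and 0 with quantile normalization, so neither gene passed there. For both the genotypes did not overlap, with Xist higher and Ddx3y lower in hcatTg. Among all clusters 2.53% did not overlap with hcatTg higher, and 17.8% with hcatTg lower. The genotype difference of Ahr and that of the sex-linked genes run along the same arrays, so they cannot be told apart as differences of catalase or of sex.

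Markers of cell types moved with the genotype as well, and their part in the difference of Ahr was not tested. Of 12 endothelial markers 2 were in the table, Kdr higher (mean difference 2.31) and Eng lower (-1.31). The other 10 were not analysed here, so the endothelial label could not be checked further. Of 8 smooth muscle markers 4 were in the table and all had lower means in hcatTg, from -2.92 (Rgs5) to -0.95 (Lmod1). Most of the table ran this way, with 305 of its 398 probe sets lower in hcatTg. Of 10 fibroblast, 6 mesothelial and 7 leukocyte markers, 4, 4 and 3 were in the table, and each of these lists had members on either side. None of the 17 passed limma on the deposited values, while 16 had an unadjusted p below 0.05 (1.81% of all clusters) and 16 passed with the replicate block (3.27% of all clusters). With the block, 2 passed after median centring, Thbs2 and Upk1b, and 0 after quantile normalization. These markers also came from a table selected on the same arrays. In bulk RNA, more cells of a type and more RNA per cell cannot be told apart.

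The size of the difference of Ahr rested on which arrays entered. It was 0.55 without WT replicate 1 and 2.98 without WT replicate 2, 2.62 without hcatTg replicate 1 and 0.92 without hcatTg replicate 2 on the deposited values. After quantile normalization these differences were 1.03, 2.79, 2.30 and 1.52. Leaving out an array breaks a run pair, so the run difference of Ahr then enters its genotype difference. In every one of these 8 settings hcatTg was the higher. Ahr was chosen as higher in both runs, and with quantile normalization its genotypes did not overlap, so this direction describes it only.

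**Figure D5:**
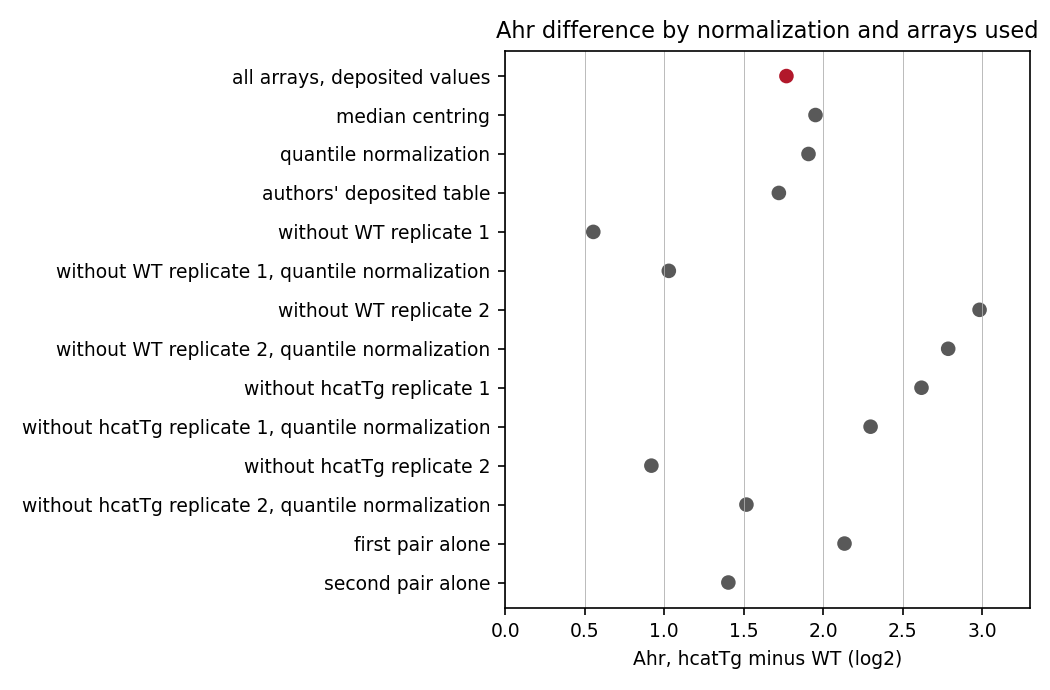
Difference of Ahr between hcatTg and WT (log2, x axis) under each normalization and set of arrays (y axis), each point being 1 setting. All points lie above 0, from 0.55 without WT replicate 1 to 2.98 without WT replicate 2 on the deposited values, with 1.77 for all arrays.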

How the data were processed

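The authors deposited a value table of log2 values for 35557 transcript clusters on 4 arrays. They were made with Affymetrix Expression Console, per the submitters' processing notes. The sources used here do not give its version, the probe annotation or the genome build. The authors' deposited table holds, per the file headers, log2 RMA (robust multi-array average) signals of the first arrays, a linear ratio and signed folds (other), where a negative fold stands for WT over hcatTg. Gene names came only from that table. Through its accessions 385 were matched to RefSeq (GRCm38.p6), 41 to another symbol, and 13 were kept. Precision is limited by the number of arrays.

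From these values, array levels, ranks and differences of Ahr were computed in Python 3.11.15 and limma (version 3.58.1, R 4.3.3, lmFit and eBayes, Benjamini-Hochberg threshold 0.05) was fitted across all clusters, WT against hcatTg, without a block. The fit was tested on simulated data with independent noise, no difference between runs and planted changes larger than that of Ahr. That test therefore does not cover run differences or smaller changes. The smallest two-sided p that exact permutation of 2 against 2 arrays allows is 0.333. The authors' table pairs the arrays by time, and same-numbered arrays deviated together from their group means (r = 0.689 over clusters, which are no independent replicates). A fit with that replicate block was an alternative, with median centring, quantile normalization, filters on clusters, other variance models and leaving out each array. The named genes were Ahr, the members of the fixed lists, the 6 nearest in pattern and the neighbours in rank, with 1 of the 6 nearest not reported here. Genes listed with an overlap or an element were named after their values were seen. The members, lists and alternatives were chosen with earlier results of these data known.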

Additional observations from a re-analysis of the deposited data

How the results depend on the processing

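The difference of Ahr between hcatTg and WT kept its direction under every setting run. Ahr was chosen for a difference of 2-fold or more in both runs, so this direction was largely set in advance and describes it only. It was 1.77 on the deposited values, 1.95 with median centring, 1.91 with quantile normalization and 1.72 in the authors' deposited table. The runs are balanced, so the replicate block could not change the difference, which stayed at 1.77, with an SE of 0.327 in place of 0.803. In that fit all clusters shared a single variance, so this SE is not particular to Ahr. Leaving out one array gave 0.55 to 2.98. The gap between the lowest hcatTg and the highest WT array, an item added after seeing the data, was -0.29 on the deposited values. It turned to 0.33 with median centring, 0.64 with quantile normalization, 0.67 when the lowest-numbered clusters were left out as well, and 4.18 percentage points on the percentile scale. The gap compares single arrays, so a shift between arrays enters it directly.

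The limma count of 3 clusters was 0 with median centring, with quantile normalization (975 and 1253 at an unadjusted p below 0.05), and with the replicate block and quantile normalization (4189). It was 52 without the lowest-numbered clusters, 1 with quantile normalization added, 1161 with the replicate block, 24 when median centring was added to the block, and 42 with an intensity trend. Leaving out one array gave 0 to 192, namely 103 and 192 without WT replicates 1 and 2 and 0 without either hcatTg array (440 and 1340 at an unadjusted p below 0.05). Each such fit assumes that the single remaining array has the spread of the other group. The cause was not tested except where clusters or arrays were left out. The count of clusters higher in both runs was 134 at 2-fold and 318 at 1.5-fold. Background signal was not analysed here, so no level of Ahr is shown to be above it.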
